A study of Mus musculus with 9 samples.

Results

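Fibroblast growth factors (FGFs), vascular endothelial growth factors (VEGFs), platelet-derived growth factors (PDGFs), angiopoietins, hepatocyte growth factor and most of their receptors were measured as transcripts in mesenchymal cells of 3 mouse tissues. The genes were chosen by a rule on their symbols, with earlier results of these data known. It covered every FGF ligand and FGF receptor, the PDGF ligands, the VEGF ligands and receptors, the angiopoietins and angiopoietin-like genes, the TIE receptors, Hgf and Met. The rule matched 52 of the 23420 gene symbols in the count tables. Cells came from C57BL/6 mice aged 3 to 4 weeks and were sorted as positive for SCA1 and negative for CD31 (endothelium), EpCAM (epithelium), and a set of blood cell antigens (CD45, CD11b, GR-1, CD2, CD4, B220, CD41 and TER119). The tissues were thymus, bone (femur, tibia and pelvis) and truncal skin (dermis of back and abdomen). Each tissue had 3 libraries, and the labels name no treatment or transgene. Thymus libraries are labelled 2, 3 and 1-3, and the meaning of the last name is not stated. If it is a pool it shares material with the others. Nothing in the labels ties a library to its own animals, so the spread behind the p-values may be a technical one.

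These ligands bind receptor tyrosine kinases on neighbouring cells. FGFs act through FGFR1 to FGFR4 together with heparan sulfate, and mesenchymal FGFs that act on an epithelial splice form of FGFR2 drive the growth of the thymic epithelium, skin and other epithelia. VEGFs act on endothelial receptors encoded by Flt1, Kdr and Flt4, angiopoietins on the TIE2 receptor encoded by Tek, and PDGFs on PDGFRA and PDGFRB, which mark many mesenchymal cells. Most of these receptors signal through RAS and ERK, and this pathway induces its own inhibitors.

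The 9 libraries held 78757872 to 116759235 reads on genes, of which 0.168 to 0.230% fell on the 52 genes. Levels are in CPM, a gene's reads scaled by library size and TMM factor, and these factors were lower in skin (0.701 to 0.770) than in thymus (1.10 to 1.18) and bone (1.16 to 1.23). Scaling by library size alone moved the median log2 fold change of all genes to 0.66 in thymus minus skin and 0.72 in bone minus skin, so differences from skin are relative to the typical gene. Values of 3 libraries are listed in the order thymus 2, 3 and 1-3, bone 1, 2 and 3, and skin 1, 2 and 3. Differences are log2 fold changes with an approximate standard error (SE), and a call is an adjusted p under 0.05 in edgeR's quasi-likelihood test over 15635 genes. A list of 12 mesenchymal markers, Ly6a among them, had reads in each tissue, which at this depth is too weak to check the cell type label. The list summed to 337700 to 373800 CPM in skin, 68360 to 69080 in bone and 54650 to 57850 in thymus. Most of the skin sum was Col1a1, Col1a2 and Col3a1, with means of 97250, 80380 and 154300 CPM. The sums therefore do not rank the tissues by mesenchymal content. Of the 12, thymus exceeded skin for 3 and fell below it for 7. Bone exceeded skin for 0 and fell below it for 7. The marker lists of other cell types are given beside the results they touch. Fewer expressing cells and less RNA per cell cannot be told apart in such bulk samples.

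Of the 52 genes, 44 passed the filter on low counts. Among these, 33 were called in at least 1 comparison, where 60.6% of all genes tested were. Thymus was higher than bone for 5 (background 16.5% of all genes) and lower for 16 (background 16.1%). Against skin, thymus was higher for 7 (background 19.3%) and lower for 15 (background 18.3%). Bone was higher than skin for 16 (background 23.7%) and lower for 12 (background 23.4%). The median log2 fold change of the tested members was -0.40 in thymus minus bone, -0.37 in thymus minus skin and -0.08 in bone minus skin, where that of all genes was 0.02, 0.03 and 0.03. The 16 lower in thymus than bone became 10 without thymus 3 and 10 without thymus 1-3, and the 5 higher became 3 without thymus 3. Calls of all genes fell in these fits too. Those lower in thymus went from 2517 of 15635 genes to 2089 of 16032 without thymus 3 and 2117 of 16124 without thymus 1-3. Those higher went from 2584 to 2168 without thymus 3. The 7 higher in thymus than skin became 4 without thymus 3 and 4 without skin 1. For all genes that count went from 3013 to 2504 without thymus 3 and 2636 without skin 1.

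A gene is said to stand apart where 1 tissue was 2-fold or more above both others, or below both, with both tests passed. Fgf1 and Fgf10 stood apart as high in thymus (background 4.05%), and Angpt4, Angptl1, Fgf7, Met and Pdgfc as low (background 3.83%). Bone was high for 10 genes (background 6.51%), namely Angptl7, Fgf3, Fgf12, Fgf14, Fgf16, Fgfr2, Fgfr3, Flt4, Pdgfa and Pdgfc, and low for Kdr (background 3.86%). Skin was high for 11 genes (background 5%), namely Angpt4, Angptl2, Angptl4, Fgf7, Fgf9, Fgf18, Fgf23, Figf, Kdr, Pdgfd and Tek, and low for Angpt2, Fgf1, Hgf and Pdgfa (background 7.55%). In all 27 genes stood apart in some tissue, which is 61.4% of the 44 tested beside 25.9% of all genes. The 11 that stood apart in bone became 5 without thymus 3 and 6 without thymus 1-3, fits in which fewer of all genes were called in thymus minus bone as well. With library size alone, Angpt4, Angptl2, Fgf7, Fgf9, Fgf18 and Fgf23 no longer stood apart in skin. Fgfr3, Fgfrl1, Flt4, Pgf and Vegfc stood apart in skin under that scaling instead.

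Promoters of 4 members are printed, of which Tek, Kdr and Figf stood apart as high in skin and Angptl7 as high in bone; they were chosen after their values were seen. Each is 300 bases of RefSeq's GRCm38.p6, 250 before and 50 after the gene's start, on the gene's strand. Capitals mark a match on either strand to 1 of 3 core motifs. The GC box was searched as GGGCGG. The TATA box was searched as TATAAA. The last motif was the CCAAT box, searched by the letters of its name. RefSeq lists Figf as Vegfd.
Tek, chr4:94739039-94739338, plus strand: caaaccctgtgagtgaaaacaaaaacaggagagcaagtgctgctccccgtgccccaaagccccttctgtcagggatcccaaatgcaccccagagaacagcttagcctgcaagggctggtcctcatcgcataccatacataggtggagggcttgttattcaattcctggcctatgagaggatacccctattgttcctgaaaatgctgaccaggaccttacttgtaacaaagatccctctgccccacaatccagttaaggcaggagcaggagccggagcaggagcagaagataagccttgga
Kdr, chr5:75978406-75978705, minus strand: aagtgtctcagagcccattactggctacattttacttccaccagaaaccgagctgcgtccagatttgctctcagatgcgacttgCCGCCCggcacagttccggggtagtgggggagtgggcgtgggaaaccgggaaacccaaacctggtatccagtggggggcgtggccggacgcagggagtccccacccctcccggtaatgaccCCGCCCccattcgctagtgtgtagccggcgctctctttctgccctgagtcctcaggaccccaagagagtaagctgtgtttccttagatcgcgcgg
Figf, chrX:164373272-164373571, plus strand: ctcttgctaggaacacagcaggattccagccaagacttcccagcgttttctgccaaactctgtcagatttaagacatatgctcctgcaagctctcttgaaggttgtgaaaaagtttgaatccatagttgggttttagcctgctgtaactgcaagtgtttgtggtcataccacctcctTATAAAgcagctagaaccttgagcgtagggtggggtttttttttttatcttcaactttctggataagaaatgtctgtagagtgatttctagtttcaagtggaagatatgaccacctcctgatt
Angptl7, chr4:148500413-148500712, minus strand: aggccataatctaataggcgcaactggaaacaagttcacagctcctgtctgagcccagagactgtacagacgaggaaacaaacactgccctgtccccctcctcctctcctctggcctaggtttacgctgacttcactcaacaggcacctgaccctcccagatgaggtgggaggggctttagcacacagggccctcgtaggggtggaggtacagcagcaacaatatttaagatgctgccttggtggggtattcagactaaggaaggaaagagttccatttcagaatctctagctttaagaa
Kdr held 2 GC boxes, both read as the reverse complement, and Figf held 1 TATA box. Tek and Angptl7 held none of the 3 in this window. Of 32851 promoters of this length, 35.7% held a GC box, 13.6% a TATA box and 37.4% a CCAAT box, so these letters are common and are given as a description. The search covered the 33 members that matched a single RefSeq promoter.

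Thymus cells carried far more Fgf1, which encodes acidic FGF, a ligand of every FGF receptor. It was at 151, 153 and 157 CPM in thymus, at 26.2, 17.5 and 13.6 in bone and at 6.96, 10.4 and 6.33 in skin. The 3 groups did not overlap, and the thymus libraries lay within a few CPM of each other. The thymus level of 154 ± 2.81 (SD, n = 3) was higher than that of bone by 3.01 ± 0.25 (SE, adjusted p = 6.2e-06) and than that of skin by 4.29 ± 0.27 (adjusted p = 5.86e-07) on the log2 scale. Bone was higher than skin by 1.28 ± 0.24 (adjusted p = 0.00116).

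Fgf10, a mesenchymal ligand that drives growth of thymic and other epithelia (mm10 chr13:118714699-118792573), was the other ligand high in thymus. Its levels were 58.3, 51.2 and 50.6 CPM in thymus, 16.1, 12.2 and 3.31 in bone and 20.4, 23.0 and 15.0 in skin. Every thymus library was above every library of the other tissues, and bone 3 was the lowest of all. The difference from bone was 2.34 ± 0.46 (adjusted p = 0.00357). The difference from skin was 1.45 ± 0.45 (adjusted p = 0.0285), and that call was lost when any 1 of the 6 thymus or skin libraries was left out (adjusted p up to 0.101) and with no filter on low counts.

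Fgf7, or keratinocyte growth factor, which shares its main receptor with Fgf10, had the opposite order (chr2:126034658-126091185). Its libraries were at 10.2, 12.4 and 17.6 CPM in thymus, 29.0, 21.6 and 30.3 in bone and 55.8, 52.2 and 56.8 in skin. No 2 tissues overlapped. Thymus was lower than bone by a log2 fold change of -1.01 ± 0.20 (adjusted p = 0.0026) and lower than skin by -2.03 ± 0.21 (adjusted p = 1.54e-05). Bone was lower than skin at -1.03 ± 0.20 (adjusted p = 0.00145), a call that library size alone did not give. On the deposited RPKM scale, which divides by gene length, the ratio of Fgf7 to Fgf10 was 0.297 to 0.584 in the thymus libraries, 3.02 to 15.7 in bone and 3.78 to 6.34 in skin, so thymus was the tissue with more Fgf10 than Fgf7 in each of its libraries.

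Skin cells were highest for 3 more secreted FGFs. Fgf18, which acts in cartilage, bone and the hair follicle, was at 7.09, 8.89 and 9.70 CPM in thymus, 8.44, 13.9 and 14.1 in bone and 32.8, 30.6 and 30.3 in skin. Skin was well above both other tissues, which overlapped each other, with log2 fold changes of -1.87 ± 0.22 in thymus minus skin (adjusted p = 4.11e-05) and -1.36 ± 0.22 in bone minus skin (adjusted p = 0.000302). Library size alone kept both calls, at smaller log2 fold changes of -1.24 and -0.67. Fgf9, a ligand made by both epithelium and mesenchyme in development, was at 0.319, 1.25 and 1.90 CPM in thymus, 1.40, 1.47 and 1.15 in bone and 3.70, 7.87 and 3.84 in skin. Skin 2 was the highest of these libraries, and without it both calls were lost (adjusted p up to 0.108 in thymus minus skin and 0.131 in bone minus skin). The call in bone minus skin was lost without bone 2 or bone 3 as well, and library size alone gave neither.

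Fgf23, known as a phosphate hormone made by osteocytes, was highest in skin and not in bone. It was at 0, 0.151 and 0.226 CPM in thymus, 0.912, 0 and 0.336 in bone and 4.80, 8.21 and 9.35 in skin, and skin overlapped neither other tissue. Thymus was lower than skin at -5.89 ± 1.56 (adjusted p = 0.0142, or 0.0533 without thymus 3). Bone was lower than skin at -4.16 ± 1.43 (adjusted p = 0.0362), a call lost in 6 of the 9 fits that left out 1 library (adjusted p up to 0.105), with library size alone and with no filter. Those 6 were the fits without thymus 3, thymus 1-3, bone 3 or any 1 skin library.

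Beside these genes, the sum of 12 epithelial markers was also highest in skin. It was 118 to 338 CPM in skin, highest in skin 3, and 26.8 to 30.6 in thymus and 3.62 to 5.78 in bone. Most of the skin sum was 1 keratin gene, Krt71, at 76.3, 70.5 and 240.5 CPM in skin 1, 2 and 3. Of the 12, 6 were higher and 2 (Krt8 and Krt18) lower in skin against thymus, and 11 were higher in skin than in bone. Krt15 had 0 reads in bone. Whether epithelial RNA has a part in the skin values was not tested.

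Bone cells were highest for Fgf16, a relative of Fgf9, at 6.66, 4.89 and 7.59 CPM beside 1.01, 1.78 and 1.79 in thymus and 1.24, 1.64 and 1.56 in skin. Bone overlapped neither tissue (-2.06 ± 0.40 in thymus minus bone, adjusted p = 0.00208, and 2.11 ± 0.40 in bone minus skin, adjusted p = 0.00114). Fgf3 (chr7:144838612-144843348) had 0 reads in every thymus and skin library and 78, 66 and 37 reads in the bone libraries. Against a floor of 3 reads over the 3 libraries of a group, bone was at least 65.8-fold higher than thymus and at least 47.1-fold higher than skin. The adjusted p was 0.0217 in thymus minus bone and 0.0178 in bone minus skin. The first call was lost without any 1 thymus library (adjusted p up to 0.0628), the second without skin 2 (0.0548). Fgf4 and Fgf15, which neighbour Fgf3 on chromosome 7, had 0 reads in bone and 8 and 12 reads in skin 3 alone.

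The FGF homologous factors, Fgf11 to Fgf14, stay inside the cell, where they bind sodium channels, and are not FGFR ligands. Fgf12 was at 10.4, 3.87 and 6.30 CPM in bone, 0.571, 0.184 and 0.0980 in thymus and 1.12, 0.879 and 0.738 in skin. Bone was above both without overlap (-4.58 ± 0.71 in thymus minus bone, adjusted p = 0.000403, and 2.91 ± 0.65 in bone minus skin, adjusted p = 0.00322). Fgf14 was also called higher in bone, at 3.34 ± 2.70 CPM beside 0.643 ± 0.106 in thymus and 0.605 ± 0.163 in skin. Its calls were lost without bone 2 (adjusted p up to 0.200), and also without any 1 thymus library in thymus minus bone or without skin 2 in bone minus skin. Fgf11 and Fgf13 passed in no comparison, with means between 0.936 and 2.95 CPM.

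Among the remaining secreted FGFs, Fgf2, Fgf17 and Fgf21 were tested and passed in no comparison. Fgf2, or basic FGF, was at 2.26 ± 0.847 CPM in thymus beside 1.31 ± 0.253 in bone and 3.07 ± 0.735 in skin. Fgf17 and Fgf21 were below 0.5 CPM in every tissue mean. Fgf4, Fgf5, Fgf15, Fgf20 and Fgf22 did not pass the filter, with 24 reads or fewer in any tissue, and Fgf6 and Fgf8 had 0 reads in all 9 libraries.

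**Figure D1:**
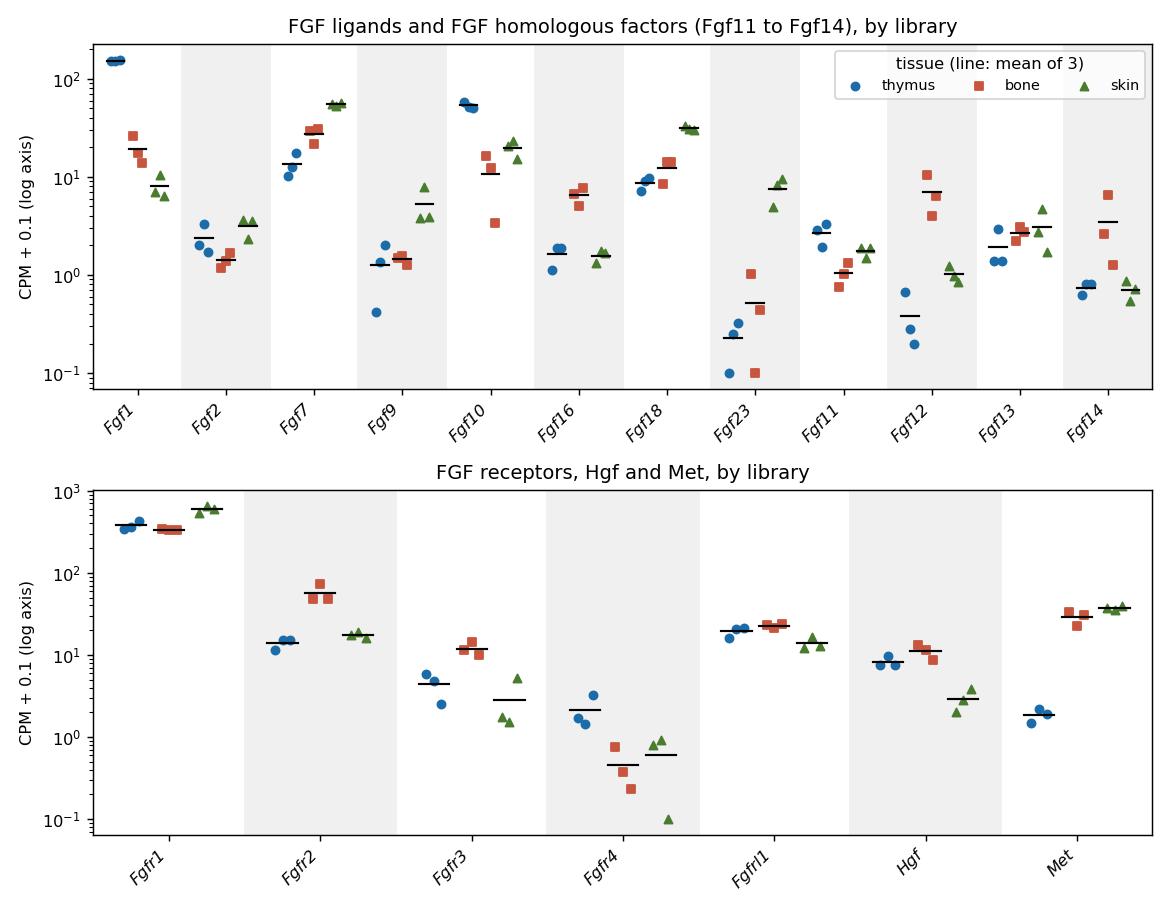
CPM + 0.1 on a log axis for 12 FGF genes (top) and for the FGF receptors, Hgf and Met (bottom); each point is 1 library, colour and shape give the tissue and the black line is the mean of 3. Fgf1 and Fgf10 lie highest in thymus, Fgf7, Fgf18 and Fgf23 in skin and Fgf12, Fgf16 and Fgfr2 in bone, while Met lies far lower in thymus than elsewhere.

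As a share of the summed RPKM of the secreted FGF ligands, Fgf1 took 56.5 ± 2.01% in thymus beside 14.5 ± 5.24% in bone and 2.86 ± 0.817% in skin (SD, n = 3). Fgf10 took 17.0 ± 2.12%, 6.69 ± 4.18% and 6.17 ± 1.34%. The largest share in skin was Fgf18 at 45.2 ± 2.56%, followed by Fgf7 at 29.2 ± 1.07%. Bone was led by the same pair, Fgf18 at 33.8 ± 10% and Fgf7 at 29.2 ± 4.77%, whose ranges overlapped there. On this scale the tissues thus differed in which ligand led, Fgf1 in the thymus libraries and Fgf18 or Fgf7 in the others.

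**Figure D2:**
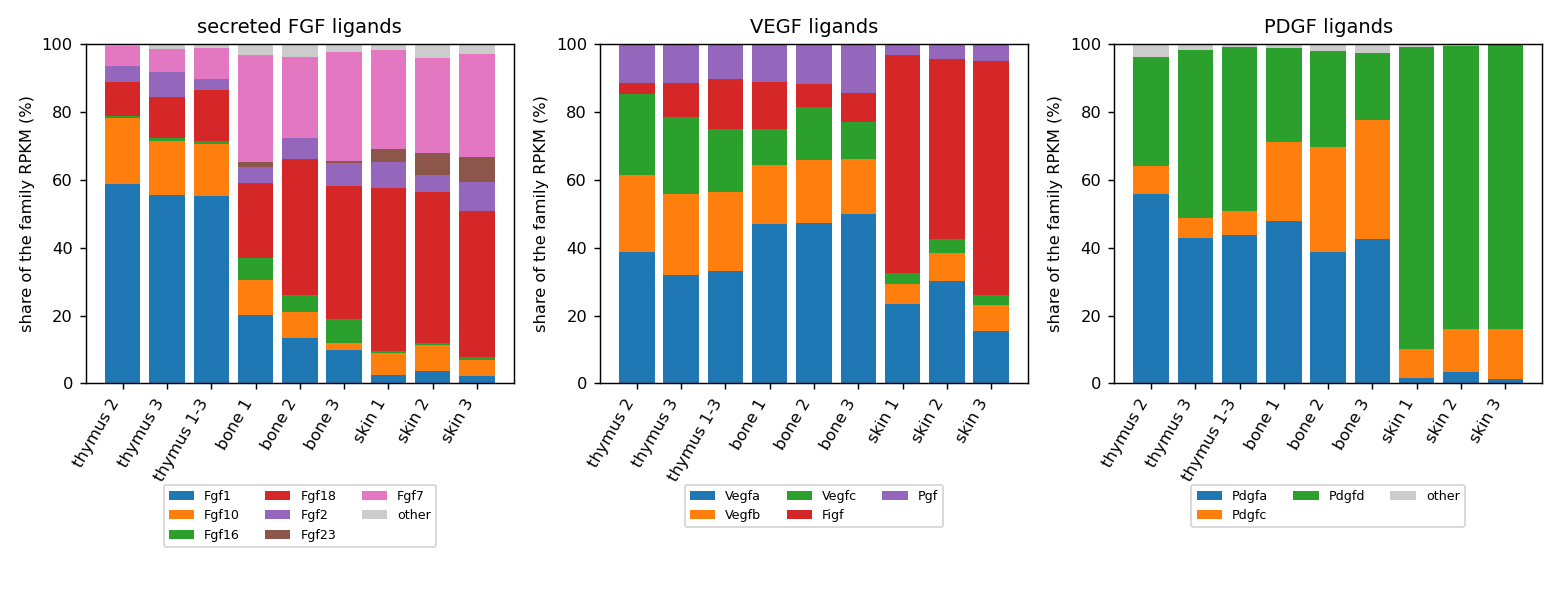
Share of each ligand (percent of the summed RPKM of its family, y axis) in the 9 libraries (x axis) for secreted FGFs, VEGFs and PDGFs; members under 5% in every library are summed as other. Fgf1 is the largest part of each thymus FGF bar (56.5% on average), Figf of each skin VEGF bar (62.1%) and Pdgfd of each skin PDGF bar (85.4%).

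Of the receptors, Fgfr1, the usual mesenchymal FGF receptor, had the highest level in each tissue and took 86.6 ± 1.03% of the summed FGF receptor RPKM in thymus beside 75.3 ± 2.25% in bone and 92.9 ± 0.197% in skin. It was at 345, 358 and 429 CPM in thymus, 337, 334 and 330 in bone and 538, 660 and 602 in skin. Skin was above both without overlap (-0.67 ± 0.14 in thymus minus skin, adjusted p = 0.00248, and -0.85 ± 0.14 in bone minus skin, adjusted p = 0.000399), but both calls were lost with library size alone and on RPKM. In RPKM the means were 76.3 ± 7.22, 67.9 ± 1.74 and 82.7 ± 5.01.

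Fgfr2 (chr7:130162451-130266808), the receptor gene whose splice forms bind Fgf7 and Fgf10 or Fgf9 and Fgf18, was highest in bone. It was at 11.2, 15.0 and 15.2 CPM in thymus, 47.2, 72.8 and 47.6 in bone and 17.2, 19.0 and 16.0 in skin. Each bone library exceeded each library of the other tissues more than 2-fold (-2.02 ± 0.20 in thymus minus bone, adjusted p = 1.61e-05, and 1.68 ± 0.20 in bone minus skin, adjusted p = 3.78e-05). The splice forms cannot be separated in counts per gene. Fgfr3, which restrains the growth of cartilage, was at 5.73, 4.71 and 2.45 CPM in thymus, 11.2, 14.1 and 9.85 in bone and 1.65, 1.42 and 5.12 in skin. It too was higher in bone than in skin (2.10 ± 0.50, adjusted p = 0.00468). The call against thymus (-1.45 ± 0.48, adjusted p = 0.0396) was lost without thymus 3, thymus 1-3 or any 1 bone library (adjusted p up to 0.129). In GENCODE 13.9% of the Fgfr3 exon bases overlap a transcript on the other strand, and the sources used here do not say whether counting used strand.

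Fgfrl1, a receptor that lacks the kinase domain, varied less, at 16.1, 20.8 and 21.4 CPM in thymus, 23.3, 21.3 and 23.4 in bone and 11.9, 16.5 and 12.7 in skin. It was higher in bone than in skin (0.73 ± 0.18, adjusted p = 0.00584), with no overlap. The call in thymus minus skin (0.51 ± 0.18, adjusted p = 0.043) was lost in 7 of the 9 fits that left out 1 library (adjusted p up to 0.147), with RLE or upper quartile factors and in DESeq2. It held without thymus 2 and without skin 2. Fgfr4 passed in no comparison, at 2.03 ± 0.998, 0.351 ± 0.269 and 0.501 ± 0.437 CPM.

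Chondrocyte markers were far higher in bone, beside the bone-high members. The sum of 10 of them was 30490 to 45900 CPM in bone, 30.4 to 41.3 in thymus and 23.4 to 51.4 in skin. Most of the bone sum was 1 gene, Prg4, at 44070, 27940 and 43500 CPM in bone 1, 2 and 3. All 10 markers were higher in bone in both comparisons. Matn1 had 0 reads in thymus and skin, and Matn3 in thymus. Osteoblast markers summed to 544 to 1210 CPM in bone, 24.1 to 30.6 in thymus and 7.72 to 12.3 in skin. Myeloid markers summed to 2891 to 4007 CPM in bone, 24.3 to 87.6 in thymus and 42.3 to 100.1 in skin, and 13 of 13 were higher in bone than in thymus. The part of these cells in the bone values of Fgf3, Fgf12, Fgf16, Fgfr2 and Fgfr3 was not tested.

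Genes that ERK signalling induces, most of them feedback inhibitors, were higher in thymus. Of 16 tested from a list of 17, 12 were higher and 2 lower in thymus than in bone, with a median log2 fold change of 1.18, and 11 were higher and 3 lower than in skin, with a median of 1.86. The same directions held for 16.5% and 19.3% of all genes. Across all scalings, tools and left-out libraries the first count of higher genes was 10 to 12 and the second 11 to 13. Spry1, a Sprouty inhibitor of receptor tyrosine kinases, was at 256 ± 36.2 CPM in thymus beside 58.2 ± 6.21 in bone and 40.9 ± 11 in skin (2.14 ± 0.20 in thymus minus bone, adjusted p = 8.7e-06). Spry4 was at 94.4 ± 7.65, 24.1 ± 5.01 and 5.18 ± 1.06 (4.19 ± 0.21 in thymus minus skin, adjusted p = 7.74e-08), and Dusp6, a phosphatase of ERK, at 147 ± 17.0, 68.1 ± 4.66 and 12.3 ± 3.51 (3.58 ± 0.20, adjusted p = 1.8e-07). Ccnd1, the cyclin D1 gene, was at 388 ± 56.0 in thymus beside 40.4 ± 3.10 and 43.2 ± 4.69 (3.27 ± 0.15 in thymus minus bone, adjusted p = 7.37e-08). Beside these genes, 11 pericyte and smooth muscle markers summed to 270 to 288 CPM in skin, 446 to 466 in bone and 1406 to 1731 in thymus. A sum over 12 lymphoid markers was 1.07 to 1.27 CPM in skin, 109 to 157 in bone and 57.9 to 170 in thymus. Of the 12, 9 were higher and 0 lower in thymus against skin, and 4 higher and 5 lower against bone. Igll1 had 0 reads in thymus and skin, and Cd3e had 0 in skin. The part of these cell types in the ERK-induced genes was not tested.

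The list did not move as 1 block. Dusp5 and Errfi1, which encode a nuclear ERK phosphatase and an inhibitor of the EGF receptor, were lower in thymus than in both other tissues, and Spry2 was lower in thymus than skin (-0.79 ± 0.15, adjusted p = 0.00149). Errfi1 was at 271 ± 39.0 CPM in thymus beside 903 ± 214 in bone and 1695 ± 433 in skin, so the summed level of the list was highest in skin (1609 to 2534 CPM) and 1494 to 1823 in thymus and 1128 to 1517 in bone. Dusp5, Errfi1 and the sums were singled out after their values were seen. Between bone and skin 6 were higher and 2 lower in bone, with 14 higher under library size alone and 13 on RPKM. Of all genes, 23.7% were higher and 23.4% lower in bone in the main analysis. Library size alone called 7474 of 15635 genes higher in bone, and the RPKM fits 6218 and 6219 of 12279. Spry3 had 0 reads. The genes of the cascade itself (adaptors, RAS, RAF, MEK and ERK) differed less: of 18 tested, 3 were higher and 2 lower in thymus than in bone (median 0.03), and 4 higher and 2 lower than in skin (median 0.14). The shares of all genes were 16.5% and 16.1% against bone, and 19.3% and 18.3% against skin. Several signals besides FGF act through ERK, and which of them acts here was not tested.

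**Figure D3:**
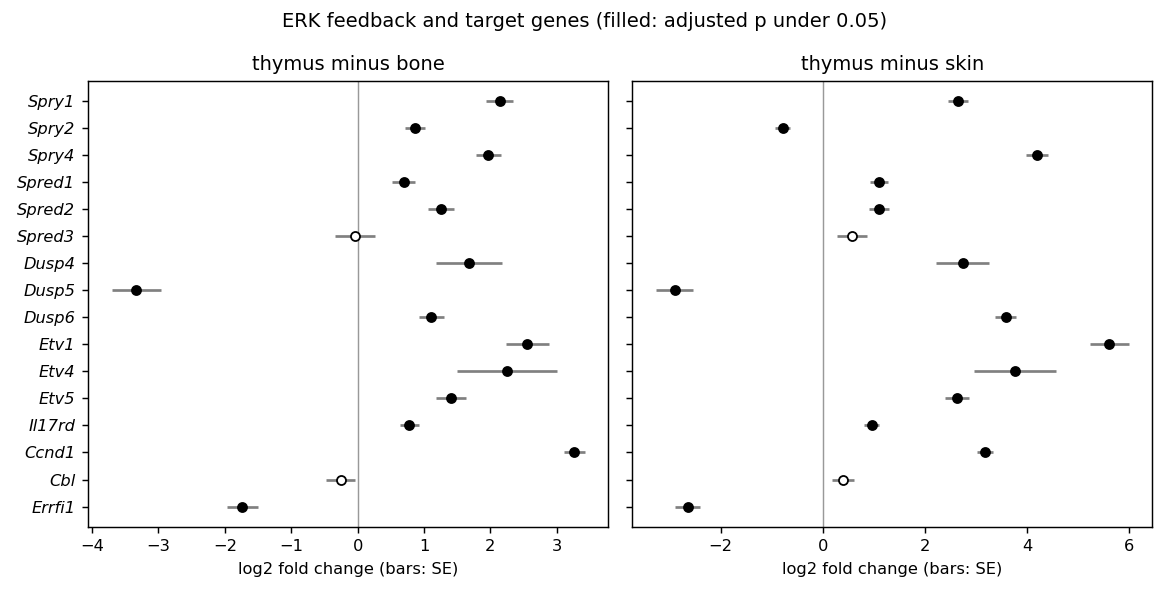
Log2 fold changes of 16 ERK feedback and target genes in thymus minus bone (left) and thymus minus skin (right); bars are SE and filled points passed at an adjusted p under 0.05. Most points lie to the right of 0, that is higher in thymus, and Dusp5 and Errfi1 lie to the left in both panels.

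Among VEGF ligands, Vegfa passed in no comparison, while the lymphatic ligands Vegfc and Figf did. Vegfa, the main angiogenic factor, was at 85.9, 82.6 and 100 CPM in thymus, 100, 122 and 92.7 in bone and 107, 132 and 95.8 in skin. The groups overlapped and no comparison passed (adjusted p of 0.132 to 0.675). Its log2 fold changes were -0.23 ± 0.16, -0.32 ± 0.16 and -0.09 ± 0.16 in thymus minus bone, thymus minus skin and bone minus skin. Scaling by library size alone, and limma on log2 RPKM, called it higher in bone than in skin.

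Figf encodes VEGF-D, a ligand of the lymphatic receptor FLT4 (gene at chrX:164373548-164402647, promoter above). It was at 3.32, 11.2 and 18.9 CPM in thymus, 12.3, 7.67 and 6.63 in bone and 124, 96.8 and 180 in skin. The lowest skin library was more than 5-fold above the highest of the others, and thymus and bone overlapped. Thymus was lower than skin at -3.58 ± 0.56 (adjusted p = 0.00079) and bone at -3.91 ± 0.57 (adjusted p = 0.000389). In RPKM Figf made up 62.1 ± 8.20% of the VEGF ligands in skin, 9.48 ± 5.69% in thymus and 9.76 ± 3.60% in bone, and Vegfa 23.1 ± 7.40%, 34.6 ± 3.69% and 48.1 ± 1.59%. The ratio of Vegfa to Figf was 0.225 to 0.572 in the skin libraries and 2.24 to 11.3 in the others.

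Vegfc, the other ligand of FLT4, ran the other way. It was at 22.8, 25.7 and 24.4 CPM in thymus, 10.2, 17.9 and 9.09 in bone and 6.50, 7.77 and 8.27 in skin, with no overlap between tissues. Thymus was higher than skin by 1.69 ± 0.25 (adjusted p = 0.000236) and than bone by 0.97 ± 0.24 (adjusted p = 0.0095). The smaller excess of bone over skin (0.72 ± 0.24, adjusted p = 0.0294) was lost without bone 2, skin 1 or skin 2 (adjusted p up to 0.156). Ccbe1 and Adamts3, which are needed to process VEGF-C, also differed: Adamts3 was at 10.8 ± 2.43 CPM in thymus beside 22.3 ± 2.62 in bone and 3.58 ± 0.903 in skin (2.64 ± 0.25 in bone minus skin, adjusted p = 7.32e-06). Ccbe1, singled out after its values were seen, was at 19.6 ± 3.81, 27.6 ± 4.70 and 0.829 ± 0.705 CPM (4.59 ± 0.66 in thymus minus skin, adjusted p = 0.000462). Vegfb was called higher in thymus than in bone (19.6 ± 4.43 against 11.8 ± 2.61 CPM, adjusted p = 0.0403), a call lost in 5 of the 9 fits that left out 1 library (thymus 3, thymus 1-3, bone 1, bone 3 or skin 2, adjusted p up to 0.173). Pgf, a ligand of FLT1, passed in no comparison at 9.02 to 12 CPM.

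**Figure D4:**
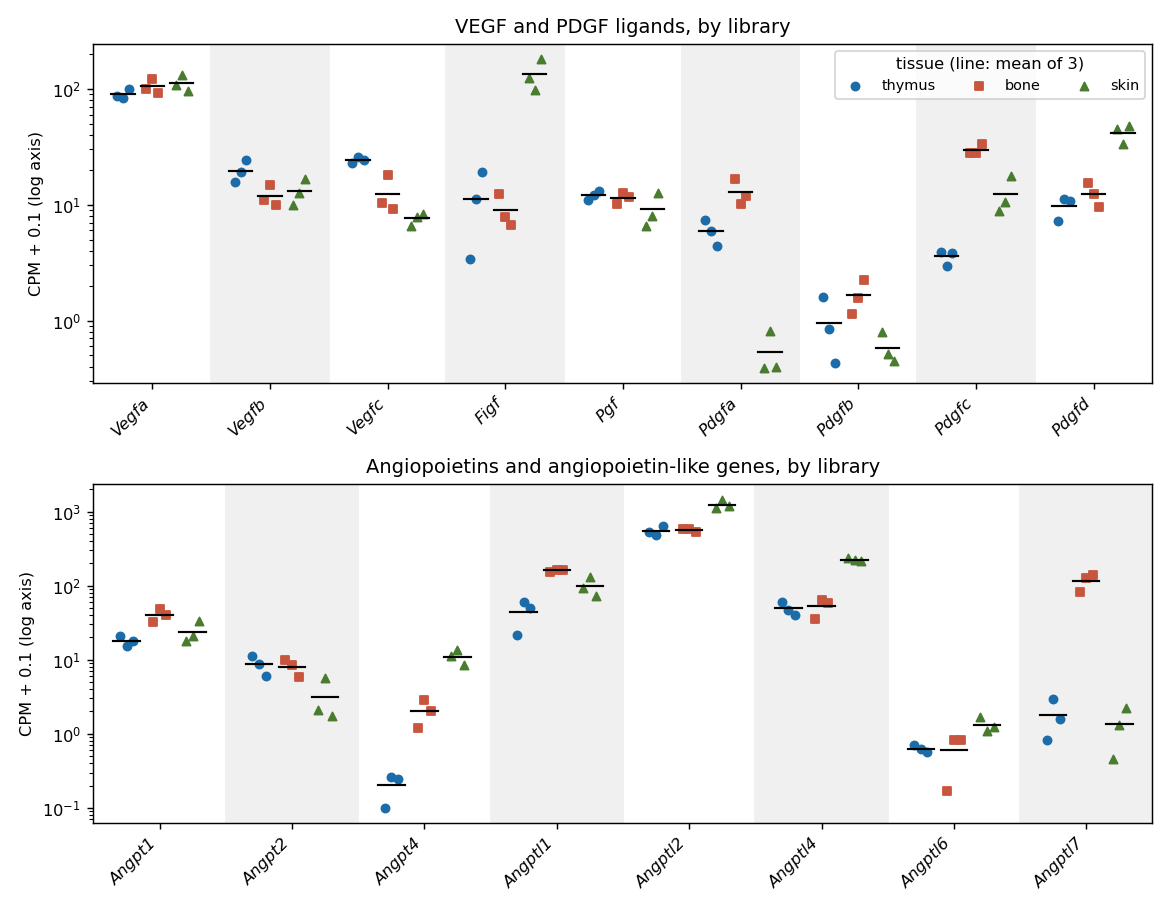
CPM + 0.1 on a log axis for VEGF and PDGF ligands (top) and for angiopoietins and angiopoietin-like genes (bottom); each point is 1 library and the black line is the mean of 3. Figf, Pdgfd and Angpt4 lie highest in skin, Angptl7 and Pdgfc in bone, and the points of Vegfa and Pgf overlap between the 3 tissues.

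Skin cells carried transcripts of receptors that are best known from endothelium, although CD31-positive cells had been sorted out. Tek, which encodes the angiopoietin receptor TIE2 (chr4:94739300-94874939), was at 28.3, 52.5 and 52.4 CPM in thymus, 39.6, 28.9 and 26.3 in bone and 204, 224 and 280 in skin. Skin was above both other tissues in every library, and these overlapped (-2.41 ± 0.25 in thymus minus skin, adjusted p = 2.63e-05, and -2.90 ± 0.26 in bone minus skin, adjusted p = 6.85e-06). Kdr, which encodes VEGFR2 (chr5:75933270-75978428), was at 6.37, 11 and 8.51 CPM in thymus, 1.93, 4.61 and 4.58 in bone and 32.0, 38.1 and 48.6 in skin. No tissues overlapped (-2.20 ± 0.33 in thymus minus skin, adjusted p = 0.000354, and -3.42 ± 0.35 in bone minus skin, adjusted p = 1.78e-05). Kdr in thymus minus bone was 1.22 ± 0.33 (adjusted p = 0.0144, or 0.0533 without thymus 3).

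The other receptors of these families did not follow Tek and Kdr. Tie1, the partner of TIE2, was at 1.08 ± 0.586 CPM in thymus beside 4.41 ± 0.759 in bone and 1.88 ± 1.23 in skin. It was called lower in thymus than in bone (adjusted p = 0.0358), and the call was lost without any 1 thymus or bone library (adjusted p up to 0.0975). Flt4, the VEGF-C and VEGF-D receptor gene, was at 0.587 ± 0.177, 2.62 ± 0.578 and 0.219 ± 0.0200 CPM, highest in bone (3.57 ± 0.72 in bone minus skin, adjusted p = 0.00163). In thymus minus bone its call (adjusted p = 0.0291) was lost without any 1 thymus library or without bone 2 or bone 3 (adjusted p up to 0.0955). Flt1 passed in no comparison, at 1.91 to 3.33 CPM. In RPKM the ratio of Tek to Tie1 was 63.3 to 326 in skin, 28.4 to 59.8 in thymus and 4.64 to 6.77 in bone.

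Endothelial markers did not share 1 order of tissues. The sum of 15 of them was 120 to 141 CPM in bone, 124 to 184 in skin and 195 to 302 in thymus. Plvap and Ramp2 made up most of the thymus sum, and Ramp2 most of the skin sum. None of the 15 was higher in skin than in thymus while 4 were lower, and 3 were higher and 6 lower in skin than in bone. Of all genes, 18.3% were higher and 19.3% lower in skin than in thymus, and 23.4% and 23.7% against bone. Cdh5, the cadherin of endothelial junctions and singled out after its values were seen, was at 3.49, 5.96 and 9.16 CPM in thymus, 14.9, 6.14 and 8.87 in bone and 5.27, 7.88 and 5.21 in skin, where the groups overlapped. In RPKM the ratio of Tek to Cdh5 was 24.1 to 45.7 in skin, 4.82 to 7.51 in thymus and 2.18 to 4.01 in bone, and that of Kdr to Cdh5 was 3.56 to 6.93, 0.674 to 1.38 and 0.0938 to 0.587. Erg was highest in bone (15.7 ± 3.46 CPM beside 0.928 ± 0.281 in thymus and 0.633 ± 0.499 in skin), and Plvap and Emcn in thymus (100 ± 39.3 and 11.9 ± 2.30 CPM). Sox17 had 0 reads in bone. Sox18 and Ramp2, also named after their values were seen, had their highest means in skin. Sox18 was at 3.90 ± 0.784 CPM in skin beside 0.996 ± 0.703 in thymus and 0.364 ± 0.256 in bone (-3.42 ± 0.82 in bone minus skin, adjusted p = 0.00475). Ramp2 was at 115 ± 27.9 CPM in skin beside 82.1 ± 17.3 in thymus and 55.1 ± 13.4 in bone (-1.06 ± 0.22, adjusted p = 0.00239). The part of endothelial RNA in the Tek and Kdr levels was not tested.

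Flt4 was highest in bone, and 6 lymphatic endothelial markers summed to 294 to 423 CPM in skin, 265 to 328 in thymus and 88.7 to 134 in bone. Most of that sum was Pdpn, at 348 ± 65.7, 285 ± 35.4 and 99.8 ± 23.1 CPM in skin, thymus and bone. Of 5 tested, 1 was higher and 3 lower in thymus against bone, and 2 were higher and 1 lower in bone against skin. Lyve1 was at 3.85 ± 0.859 CPM in bone and 2.94 ± 1.12 in skin (adjusted p = 0.761), and Mmrn1 at 4.69 ± 2.32 in bone. Ccl21a had 0 reads in every tissue. In addition, megakaryocyte markers summed to 27.9 to 94.1 CPM in bone, 21.9 to 27.2 in skin and 3.87 to 11.2 in thymus. Their part in the Flt4, Tie1 and Angpt values was not tested.

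**Figure D5:**
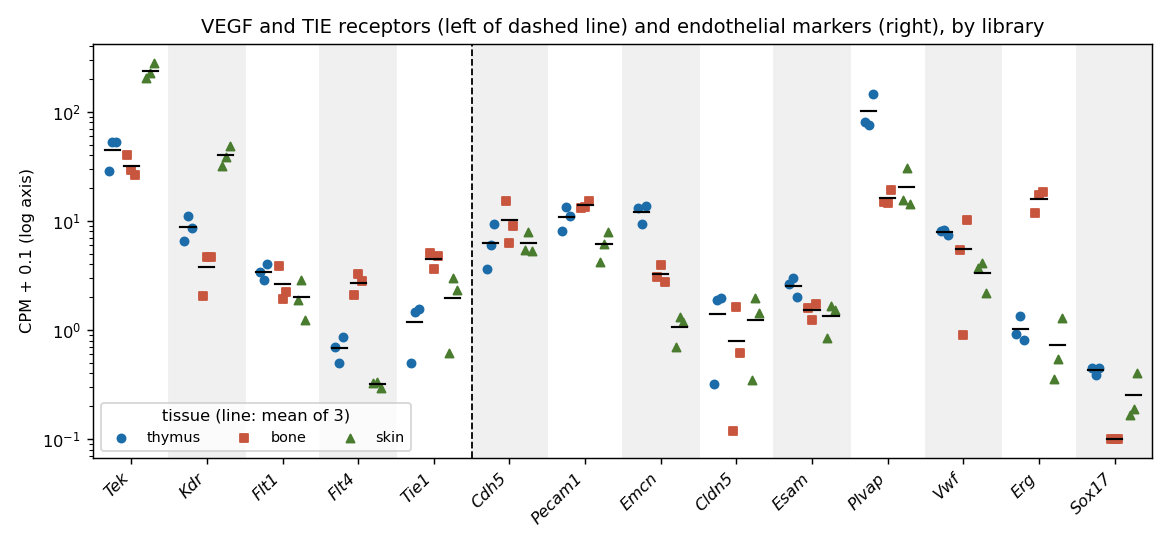
CPM + 0.1 on a log axis for VEGF and TIE receptors (left of the dashed line) and 9 of the 15 listed endothelial markers (right). Each point is 1 library and the black line is the mean of 3. Of the markers not drawn, Sox18 and Ramp2 had their highest means in skin, and Egfl7, Robo4, Tal1 and Icam2 had theirs in bone or thymus. Tek (204 to 280 CPM) and Kdr (32.0 to 48.6) lie highest in skin, while Cdh5 lies between 5.21 and 7.88 there and overlaps the other tissues.

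Angpt1, the activating ligand of TIE2, was present in all tissues at 21.0, 15.1 and 17.8 CPM in thymus, 32.5, 47.6 and 40.2 in bone and 17.6, 20.5 and 33.1 in skin. Bone was above thymus without overlap (-1.16 ± 0.24 in thymus minus bone, adjusted p = 0.00302). The call in bone minus skin (0.76 ± 0.24, adjusted p = 0.0208) was lost without bone 2, skin 1 or skin 2 (adjusted p up to 0.0825), and skin 3 overlapped bone. In GENCODE 14.2% of the Angpt1 exon bases overlap an antisense transcript. Angpt2, a ligand that often opposes Angpt1, was at 11.2, 8.54 and 5.86 CPM in thymus, 9.79, 8.37 and 5.71 in bone and 2.01, 5.54 and 1.66 in skin. It was lower in skin than in thymus (1.48 ± 0.45 in thymus minus skin, adjusted p = 0.0227) and bone (1.38 ± 0.45, adjusted p = 0.0253), each call being lost in 4 of the 9 fits that left out 1 library (adjusted p up to 0.0824 and 0.0863). Those were skin 1, skin 3 and, in thymus minus skin, thymus 2 or 3 or, in bone minus skin, bone 1 or 2.

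Angpt4, the third TIE2 ligand, was a skin transcript. It was at 0, 0.159 and 0.147 CPM in thymus, 1.09, 2.75 and 1.94 in bone and 11, 13.4 and 8.38 in skin, with no overlap between tissues. The log2 fold change was -6.74 ± 0.90 in thymus minus skin (adjusted p = 0.000175), -4.24 ± 0.82 in thymus minus bone (adjusted p = 0.00247) and -2.50 ± 0.72 in bone minus skin (adjusted p = 0.0151, or 0.0593 without skin 2). Library size alone did not give the last call. Skin was thus the tissue with the most Tek and the most Angpt4, and the tissue with the least Angpt2.

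The angiopoietin-like genes share a fold with the angiopoietins but do not bind TIE2. Angptl7 (chr4:148495280-148500462, promoter above), known from cornea and trabecular tissue, was at 81.4, 128 and 138 CPM in bone, 0.730, 2.87 and 1.48 in thymus and 0.360, 1.23 and 2.16 in skin. No other member differed as much between bone and the other tissues among those with reads in all 9 libraries (-6.09 ± 0.68 in thymus minus bone, adjusted p = 0.000105, and 6.53 ± 0.70 in bone minus skin, adjusted p = 5.2e-05). In RPKM it took 17.2 ± 3.75% of the angiopoietin-like genes in bone, 0.407 ± 0.286% in thymus and 0.118 ± 0.0928% in skin. The chondrocyte, osteoblast and myeloid marker sums given above were also highest in bone. The part of these cells in the Angptl7 level was not tested.

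Angptl4, a secreted inhibitor of lipoprotein lipase, was at 60.3, 47.2 and 40.4 CPM in thymus, 35.6, 64.7 and 58.2 in bone and 232, 219 and 217 in skin. Skin stood far above the rest, which overlapped (-2.18 ± 0.22 in thymus minus skin, adjusted p = 1.35e-05, and -2.08 ± 0.22 in bone minus skin, adjusted p = 1.6e-05). Angptl2, an extracellular protein linked to inflammation, was at 534, 479 and 632 CPM in thymus, 586, 575 and 533 in bone and 1105, 1444 and 1181 in skin. It was also higher in skin than in thymus (-1.18 ± 0.16, adjusted p = 0.000114) and bone (-1.14 ± 0.16, adjusted p = 0.000113), and took 68.5 ± 2.37% of the summed RPKM of the family there and 76.7 ± 4.34% in thymus. Library size alone kept both Angptl2 calls, at -0.55 in thymus minus skin and -0.44 in bone minus skin. Adipocyte markers summed to 414 to 554 CPM in skin, 1124 to 1261 in thymus and 215 to 346 in bone, and most of that sum was Lpl. Of the 6, 1 was higher and 2 lower in thymus against skin, and 1 was higher and 1 lower in bone against skin. The 2 were Fabp4 (21.7 ± 7.68 CPM in skin beside 8.42 ± 3.40 in thymus, adjusted p = 0.0174) and Pparg (7.57 ± 1.53 beside 1.77 ± 1.39, adjusted p = 0.0124). The part of adipocyte RNA in the Angptl4 level was not tested.

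Angptl1 was lowest in thymus, at 21.6, 60.4 and 50.1 CPM beside 154, 165 and 163 in bone and 93.0, 131 and 72.2 in skin. Thymus overlapped neither tissue (-1.87 ± 0.34 in thymus minus bone, adjusted p = 0.00239). In thymus minus skin (-1.16 ± 0.34, adjusted p = 0.0215) the call was lost without skin 2 (adjusted p = 0.086), with library size alone and on RPKM. In GENCODE 16.4% of the Angptl1 exon bases overlap a transcript on the other strand. Angptl6 passed in no comparison at 0.509 to 1.22 CPM.

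The PDGF ligands did not share 1 order: Pdgfa was lowest in skin, Pdgfd highest there and Pdgfc highest in bone. Pdgfa (chr5:138976972-138994953), a ligand of PDGFRA, was at 7.33, 5.79 and 4.32 CPM in thymus, 16.4, 10.1 and 11.7 in bone and 0.292, 0.718 and 0.300 in skin. Each thymus and bone library was above each skin library at least 6-fold (3.75 ± 0.42 in thymus minus skin, adjusted p = 3.04e-05, and 4.88 ± 0.44 in bone minus skin, adjusted p = 5.28e-06). The call in thymus minus bone (-1.13 ± 0.37, adjusted p = 0.0353) was lost without thymus 3, thymus 1-3, bone 1 or bone 3 (adjusted p up to 0.130). In GENCODE 26.1% of the Pdgfa exon bases overlap an antisense transcript, whose reads cannot be told apart where strand was not used.

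Pdgfc, a second ligand of PDGFRA that must be cleaved to act (chr3:81036416-81214031), was at 3.84, 2.88 and 3.71 CPM in thymus, 27.9, 27.8 and 33.4 in bone and 8.71, 10.4 and 17.7 in skin. The order bone, skin, thymus held without overlap (-3.10 ± 0.27 in thymus minus bone, adjusted p = 6.35e-06, and -1.82 ± 0.26 in thymus minus skin, adjusted p = 0.000199). Bone exceeded skin by 1.28 ± 0.26 (adjusted p = 0.00154). Pdgfd, a PDGFRB ligand that is also cleaved, was at 7.13, 11.1 and 10.7 CPM in thymus, 15.4, 12.2 and 9.46 in bone and 45, 33.2 and 47.6 in skin. Skin was the highest without overlap (-2.12 ± 0.24 in thymus minus skin, adjusted p = 3.17e-05, and -1.76 ± 0.24 in bone minus skin, adjusted p = 9.24e-05). In RPKM Pdgfd took 85.4 ± 3.22% of the PDGF ligands in skin, 43.4 ± 9.69% in thymus and 25.2 ± 4.85% in bone, and Pdgfa 2.07 ± 1.08%, 47.3 ± 7.24% and 43.1 ± 4.6%. Pdgfb passed in no comparison at 0.484 to 1.55 CPM.

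Receptors for these ligands were abundant in every tissue. Pdgfra was at 1202, 1149 and 1129 CPM in thymus, 805, 698 and 707 in bone and 764, 695 and 869 in skin, and was higher in thymus than in bone (0.65 ± 0.14, adjusted p = 0.0035) and skin (0.58 ± 0.14, adjusted p = 0.00609). Pdgfrb was at 823, 729 and 717 CPM in thymus, 264, 290 and 259 in bone and 205, 256 and 309 in skin. Thymus was the highest for both receptors without overlap, and by more for Pdgfrb (1.48 ± 0.16 over bone, adjusted p = 3.21e-05, and 1.56 ± 0.16 over skin, adjusted p = 1.75e-05). Pericyte and smooth muscle markers, of cells that carry Pdgfrb, summed to 270 to 288 CPM in skin, 446 to 466 in bone and 1406 to 1731 in thymus. Of 11, 7 were higher and 2 lower in thymus against bone, and 8 were higher and 0 lower against skin. The 2 were Rgs5, at 15.3 ± 4.53 CPM in thymus beside 72.2 ± 7.28 in bone, and Cspg4, at 23.8 ± 3.28 beside 212 ± 19.9. The part of pericytes and smooth muscle in the Pdgfrb and Fgf10 levels was not tested.

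The PDGF receptors belong to a list of 21 co-receptor and receptor genes, of which 8 were higher and 5 lower in thymus than in bone (median 0.29), 11 higher and 6 lower in thymus than in skin (median 0.58), and 8 higher and 7 lower in bone against skin (median 0.08). The 5 became 3 without thymus 3 and 3 without bone 1. For all genes the lower calls went from 2517 to 2089 and 2199 in those fits. Of all genes, 16.5% were higher and 16.1% lower in thymus than in bone, and 19.3% and 18.3% against skin. In bone against skin the shares of all genes were 23.7% and 23.4%. Nrp1, a VEGF and semaphorin co-receptor, was at 662, 502 and 546 CPM in thymus, 178, 179 and 168 in bone and 105, 89.4 and 103 in skin. Nrp2, the co-receptor of VEGF-C, was at 226, 199 and 236, then 97.6, 99.97 and 84.4, then 13.7, 16.7 and 15.4 CPM. Both were ordered thymus, bone, skin without overlap, with 2.52 ± 0.15 for Nrp1 (adjusted p = 2.24e-07) and 3.85 ± 0.14 for Nrp2 (adjusted p = 1.25e-08) in thymus minus skin. Heparan sulfate carriers differed in kind: Gpc6 was at 596 ± 27.5 CPM in thymus beside 81.4 ± 7.67 in bone and 324 ± 40.1 in skin, and Gpc1 at 67.9 ± 9.16, 139 ± 11.5 and 8.23 ± 0.960. Sdc4 was lower in thymus than in bone at 23.8 ± 5.88 against 196 ± 22.1 CPM (-3.04 ± 0.26, adjusted p = 7.39e-06). Klb had 0 reads in bone.

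Of 19 genes that activate or release these ligands, 3 were higher and 4 lower in thymus than in bone, 3 higher and 7 lower in thymus than in skin, and 3 higher and 6 lower in bone against skin. The shares of all genes were 16.5% and 16.1%, then 19.3% and 18.3%, then 23.7% and 23.4%, in the same order. Plat, the tissue plasminogen activator that cleaves PDGF-C, was at 654 ± 102 CPM in thymus beside 100 ± 23.1 in bone and 696 ± 92.6 in skin (2.71 ± 0.20 in thymus minus bone, adjusted p = 2.03e-06). Bone thus had the most Pdgfc and the least Plat of the 3 tissues. Hpse, which encodes heparanase, was at 20.6 ± 3.01, 7.83 ± 1.23 and 67.2 ± 1.11 CPM (-3.10 ± 0.17 in bone minus skin, adjusted p = 2.25e-07), and Sulf2, a sulfatase of heparan sulfate, at 145 ± 50.1, 263 ± 37.8 and 579 ± 59.9 CPM (-2.0 ± 0.24 in thymus minus skin, adjusted p = 6.14e-05).

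Met, the receptor gene for hepatocyte growth factor (chr6:17463957-17573980), was much lower in thymus than in the other tissues. It was at 1.39, 2.08 and 1.79 CPM in thymus, 32.8, 22.5 and 30.2 in bone and 37.1, 35.1 and 39.6 in skin. Thymus was lower than bone at -4.02 ± 0.21 (adjusted p = 1.81e-07) and lower than skin at -4.41 ± 0.22 (adjusted p = 7.74e-08), the smallest adjusted p of any member in those comparisons. Bone and skin did not overlap but did not pass (-0.39 ± 0.19, adjusted p = 0.109). Hgf, the ligand, was at 7.37, 9.66 and 7.40 CPM in thymus, 12.9, 11.5 and 8.55 in bone and 1.93, 2.73 and 3.71 in skin. It was lower in skin than in thymus (1.54 ± 0.30 in thymus minus skin, adjusted p = 0.00147) and bone (1.98 ± 0.30 in bone minus skin, adjusted p = 0.000219). Thymus therefore held Hgf with little Met, skin Met with less Hgf, and bone both.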

How the data were processed

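Reads were counted per gene symbol in the deposited tables, as whole numbers. Per the submitters' processing notes, CASAVA 1.8.2, HTSeq 0.5.4 and mm10 were used, while none of the sources used here gives the aligner, annotation or use of strand. The deposited RPKM tables give the authors' RPKM, mm10 coordinates and a whole-number signal that was not used. Summary lines (5.05 to 14.8% of reads) were left out. Low counts were often even (42.2 to 76.9% of genes with 1 to 20 reads), so floors of 3 reads cover counting error at best. Counts of all 9 libraries were fitted once with edgeR 4.0.16 (R 4.3.3; quasi-likelihood, robust, TMM, filterByExpr by tissue, Benjamini-Hochberg over 15635 genes), after a check on simulated data. The SE was taken from the test, by dividing the size of the log2 fold change by the root of F. The members and lists were chosen with earlier results of these data known. Values in every library are given for 28 members, those with a mean of 20 CPM or more in 1 tissue that passed at least once and those apart in a tissue with 5 CPM or more there. Of other lists, up to 3 genes per comparison with the smallest p, Pdgfra and Pdgfrb are given. Exon overlaps come from GENCODE. The values of 1 member are not reported here. As alternatives, library size alone, upper quartile and RLE factors, other filters, DESeq2 1.42.0, limma 3.58.1 on log2 of RPKM plus 1 or plus 0.1, a replicate block, only the 2 tissues compared, and leaving out each library were used. Counts of the ERK and co-receptor lists under these settings were added after seeing the data.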

Additional observations from a re-analysis of the deposited data

How the results depend on the processing

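Of 71 calls of members, 45 were kept in every alternative that tested the gene, 49 in every fit that left out 1 library, and 0 changed sign in any of these fits. With library size alone, 12 members were higher in thymus than in skin and 7 lower in bone than in skin, where 7 and 12 were called in the main analysis. Limma on log2 of RPKM plus 1 left 4 members apart in thymus and 5 apart in bone. Its filter on RPKM left out Fgf3, Fgf12, Fgf14 and Flt4, which stood apart in bone in the main analysis. These genes were therefore not tested by limma. With plus 0.1 it gave 11 members higher in thymus than in skin, where 6557 of 12279 genes were higher. Same-numbered libraries of different tissues had deviations that correlated at -0.082 to 0.091. With 3 libraries per tissue this cannot decide whether they share animals or days, and the labels do not say. With the replicate block, 3 members were higher and 10 lower in thymus than in bone and 6 apart in bone. Of all 15635 genes, 1663 were higher and 1736 lower in thymus than in bone there, beside 2584 and 2517 in the main analysis. Thymus 1-3 shares its number with no other library, so it does not inform the thymus comparisons of that fit. Leaving out 1 library at a time gave 5 to 8 members apart in thymus, 5 to 12 apart in bone and 12 to 14 apart in skin. In thymus minus bone 3 to 6 were higher and 10 to 16 lower, in thymus minus skin 4 to 7 higher and 13 to 16 lower, and in bone minus skin 12 to 17 higher and 9 to 13 lower. Of all genes, these fits called 25.3 to 33.6% in thymus minus bone, where the main analysis called 32.6%. The shares were 28.3 to 37.1% beside 37.6% in thymus minus skin, and 37.1 to 45.6% beside 47.1% in bone minus skin. The cause of these shifts was not tested. Depth limits the members of a few reads (Fgf4, Fgf5, Fgf15, Fgf20 and Fgf22), which did not pass the filter and were not tested.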
